A study of Mus musculus with 18 samples.

Results

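The distal VH segments form the far end of the immunoglobulin heavy chain locus (Igh) on mouse chromosome 12. They were taken as all fragment ends at chr12:114926026-116026025 in mm10, which lie 1.5 to 2.6 Mb from the bait on the side of the VH genes. This rule gave 2033 ends of the 440025 listed in the series and of the 56916 on chromosome 12. The RefSeq annotation of GRCm38.p6, the assembly of mm10, places 63 Ighv genes there, 49 of the Ighv1 family (J558) and 14 of the Ighv8 family. The label J558 thus covers most but not all genes of the interval.

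The contacts came from 4C-seq, which amplifies and sequences the fragments ligated to 1 bait, here in the intronic enhancer Eμ (chr12:113426025-113426048). CD43-negative B cells from mouse spleen were fixed in formaldehyde and cut with DpnII and then Csp6I. The cells were Med1 mutant or, as controls, WT. Each genotype was sampled at rest, after 2 days with LPS and IL4, and, in libraries deposited separately, after 2 days with only LPS. All 6 groups held 3 libraries, 18 in all. The labels give no allele, deleting transgene, age or animal number, so it is not known here in which cells Med1 was mutated, and 4C-seq does not measure Med1 itself. As no label says that replicates came from separate animals, p-values measure the spread between these libraries, which may be technical.

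VH genes are the first building block of the heavy chain. In developing B cells V(D)J recombination joins 1 of them to a D and a J segment, and the whole locus contracts so that distant VH genes can reach the DJ end near Eμ. The J558 family is the largest mouse VH family, and the Ighv8 genes lie scattered among its members. In pro-B cells repeats upstream of several Ighv8 genes, known as PAIR elements, bind Pax5 and CTCF and carry antisense transcripts. Mature B cells have already rearranged the locus, and the DNA between the chosen VH gene and its D segment is lost from that allele. Distances given here are those of the germline assembly, which differ from the real ones on rearranged alleles. Med1 is a subunit of Mediator, a complex that bridges enhancer-bound factors and RNA polymerase II. LPS activates B cells through Toll-like receptor 4, and IL4 directs their class switching.

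The sequences that define the view are the primer pair given for the bait and 3 promoters inside the interval. The primers are shown because every contact in these data is a fragment joined to the piece they amplify:
bait primer 1: tctgtcctaaaggctctgaga
bait primer 2: gaacacagaagtatgtgtatgga

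RefSeq promoters of 4 long noncoding RNA genes start within the interval, and no Ighv promoter was in the table used. The 9 letters CCCTGNTGG, which form part of the known consensus of the boundary factor CTCF, were searched on both strands. They occurred in 3 of these 4 promoters and in 697 of all 32851 mouse promoters of 300 bases (2.12%). The 80 bases around each match are shown on the plus strand with the match in capitals, because the 3 stretches are nearly the same. In pairwise alignments of 81 columns, Gm30948 and Gm30996 were identical at 76, and Gm40900 matched each of them at 71. A match describes letters only and shows no binding. Gm30948 lies at chr12:115262583-115262662, Gm30996 at chr12:115407581-115407660 and Gm40900 at chr12:115703723-115703802:
Gm30948: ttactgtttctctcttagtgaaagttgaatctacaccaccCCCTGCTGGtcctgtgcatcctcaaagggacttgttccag
Gm30996: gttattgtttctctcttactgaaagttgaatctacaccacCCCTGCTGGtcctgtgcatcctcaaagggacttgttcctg
Gm40900: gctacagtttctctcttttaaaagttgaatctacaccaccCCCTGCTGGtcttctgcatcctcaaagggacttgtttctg

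The 12 resting and LPS+IL4 libraries held 2470497 to 21074434 reads, and the 6 LPS libraries list covered ends with no read number. Apart from mutant LPS+IL4 replicate 2, the deepest, each mutant library was shallower than each WT library. Some libraries stood apart. At 87 ends of chromosome 12, at least 5 of the 6 libraries of mutant numbers 2 and 3 and WT number 3 had 50 or more reads and all 6 others had fewer. Of these ends 85 lay within 500 kb of the bait and 1 in the distal VH interval. No label names these library sets, so results are also given within them. As the sets follow the replicate number on both days, resting and LPS+IL4 libraries of a number may not be independent, and tests are also given with their mean as 1 unit (3 numbers per genotype). The first set is mutant 1 with WT 1 and 2, the second mutant 2 and 3 with WT 3. Mutant number 1 also lacked distal ends on both days, as described further on. For WT LPS+IL4 replicate 2 the growth label reads anti-CD40 plus IL4. The titles of the WT libraries with reads say WTKO, but they were grouped by the genotype label WT.

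The distal VH interval held a lower share of the Eμ contacts in each Med1 mutant library than in each WT library, both at rest and with LPS+IL4. The difference passed edgeR's test over the 12 libraries at rest and as a mean of both cultures, and that mean did not pass with the number as the unit. The measure was the share of chromosome 12 reads over 5 kb from the bait. At rest the distal share was 2.90%, 4.82% and 4.28% in the 3 Med1 mutant libraries, against 5.70%, 6.28% and 5.71% in the WT libraries. Every mutant library lay below every WT library, with means of 4.00% ± 0.989 in mutant and 5.90% ± 0.331 in WT cells (SD, n = 3 each). With LPS+IL4 it was 3.73%, 4.91% and 4.74% in the mutant libraries, against 6.10%, 6.11% and 5.94% in the WT libraries. The groups again did not overlap, and the WT libraries lay closer together (4.46% ± 0.636 in mutant, 6.05% ± 0.0987 in WT). The counting error was small beside these gaps, since the widest 95% exact (Clopper-Pearson) interval reached 0.0381 percentage points to a side. Reads carry no molecular identifiers, so the interval covers counting error only.

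**Figure D1:**
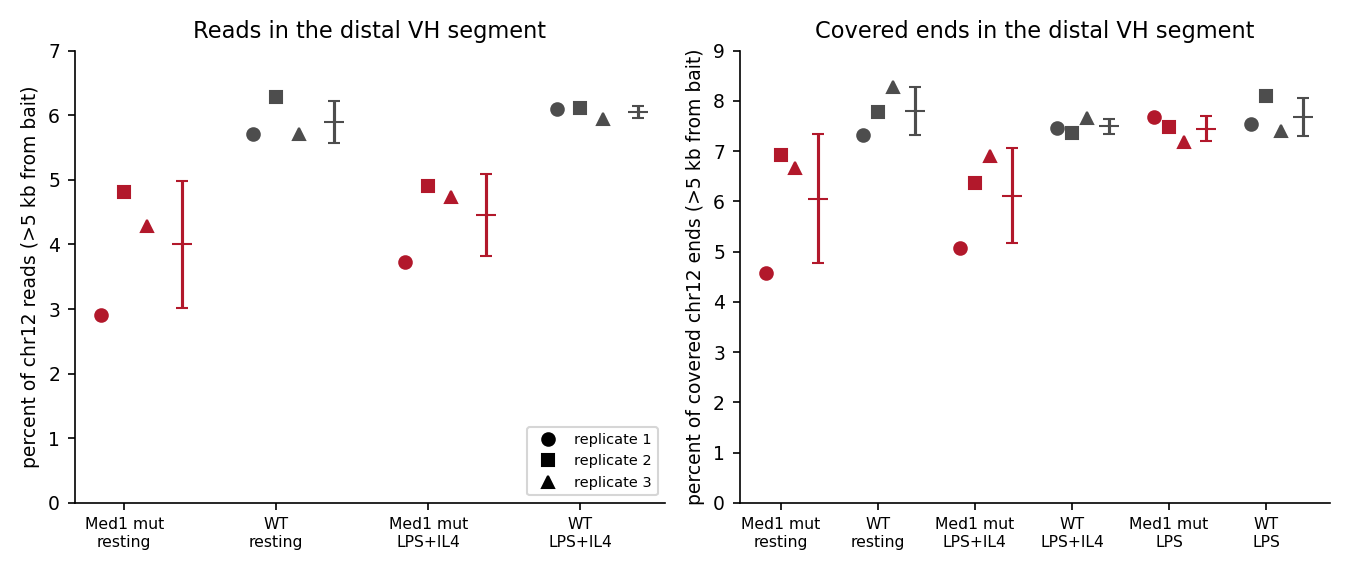
Distal VH share in each library, with mean ± SD beside the points. Left, percent of chromosome 12 reads (y) in 4 groups (x). Right, percent of covered chromosome 12 ends (y) in all 6 groups. The Med1 mutant libraries lie below the WT libraries at rest and with LPS+IL4, down to 2.90% of reads, and the genotypes overlap with LPS alone.

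Chromosome 12 was divided into 107 windows of 1.1 Mb, of which the distal VH interval is 1, and fitted with edgeR's quasi-likelihood test. At rest its log2 change, mutant over WT, was -0.56 ± 0.13 (SE, Benjamini-Hochberg adjusted p = 0.0323). In that comparison 2.8% of the windows were called, 2 higher and 1 lower, and the lower one was the distal VH interval. After LPS+IL4 the log2 change was -0.44 ± 0.13 (edgeR adjusted p = 0.260), with 0% of windows called and 4 at an unadjusted p under 0.05. For the mean of both cultures it was -0.50 ± 0.09 (edgeR adjusted p = 0.00218), the only call among the windows (0.935%). That fit takes the 12 libraries as independent. With both days of a number averaged, limma on 3 against 3 numbers gave -0.52 ± 0.14 (adjusted p = 0.195, 0% of windows called). The median window of the chromosome had a log2 change of 0.12 for this mean and 0.17 at rest. The genotype effect did not differ detectably between the cultures (edgeR interaction 0.12 ± 0.18, adjusted p = 0.941, 0% of windows called, 5 at an unadjusted p under 0.05).

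These calls depended on single libraries. The call for the mean was lost without WT resting replicate 3 (edgeR adjusted p = 0.0712) or without WT LPS+IL4 replicate 3 (edgeR adjusted p = 0.0947), with log2 changes of -0.51 in each case. The resting call was lost when any of 6 libraries was left out. These were mutant resting replicate 3 (log2 change -0.61, edgeR adjusted p = 0.0846), WT resting replicate 2 (-0.51, edgeR adjusted p = 0.101) and WT resting replicate 3 (-0.58, edgeR adjusted p = 0.165). The others were the WT LPS+IL4 libraries (edgeR adjusted p = 0.0634, 0.0642 and 0.127 for replicates 1, 2 and 3), which left its estimate at -0.56 and altered the spread shared by all groups. Over all 12 libraries left out in turn, the resting estimate ran between -0.72 without mutant resting replicate 2 and -0.37 without mutant resting replicate 1, where it stayed called (edgeR adjusted p = 0.0252). It was lost too with TMM factors (edgeR adjusted p = 0.0560), with the VH side reads as library size (0.0914) and with only the compared groups in the fit (0.414). The LPS+IL4 change passed in that last fit (edgeR adjusted p = 0.0134) and without mutant resting replicate 1 (9.9e-04).

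An exact permutation test of single values, with genotype exchanged within each culture, gave a log2 difference of -0.52 in the distal share (two-sided exact p = 0.005, the smallest that 400 arrangements can give; adjusted p = 0.0175 over 7 measures). That test exchanges the resting and LPS+IL4 libraries of a number separately. With the number as the unit the same difference had an exact p = 0.1, the smallest that 3 against 3 allow. The difference was negative in 2 of 2 cultures. Within 1 culture the smallest p that 3 against 3 libraries allow is 0.1, which both cultures reached. With genotypes exchanged only within library sets the difference was -0.60 (exact p = 0.0123, the smallest that 81 arrangements can give, adjusted p = 0.0432). Exchanging numbers within sets gave an exact p = 0.111, the smallest of 9 arrangements. At rest it was -1.05 in the first set and -0.33 in the second, and after LPS+IL4 -0.71 and -0.30. Mutant number 1, the only mutant of the first set, weighs more within sets than in the test without sets. Without mutant number 1 on both days the difference was -0.35 (exact p = 0.01, the smallest of 100 arrangements, and 0.1, the smallest of 10, with the number as the unit).

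The VH genes nearer to Eμ did not show the same size of difference. The middle VH interval, 0.5 to 1.5 Mb from the bait, held 8.22%, 8.46% and 8.23% of reads in mutant resting libraries, against 8.34%, 8.07% and 8.87% in WT resting libraries. Its groups overlapped at rest. After LPS+IL4 it held 8.92%, 8.98% and 9.19% in mutant libraries, against 10.6%, 10.2% and 9.71% in WT libraries. There each mutant library lay below each WT library, as in the distal interval. Over both cultures the middle VH log2 difference was -0.09 (exact p = 0.04, adjusted p = 0.0933), and that of the proximal VH interval, 100 to 500 kb from the bait, was 0.02 (exact p = 0.71, adjusted p = 0.828). The log2 ratio of distal to middle reads tested the gap between them directly. It was -1.50, -0.81 and -0.94 in mutant resting libraries, against -0.55, -0.36 and -0.63 in WT resting libraries. In LPS+IL4 cultures it was -1.26, -0.87 and -0.96 in mutant libraries, against -0.79, -0.74 and -0.71 in WT libraries. In both cultures each mutant library lay below each WT library, and the mean difference was -0.43 (exact p = 0.005, adjusted p = 0.0175). With the number as the unit its exact p was 0.1, again the smallest possible. Within library sets it was -0.50 (exact p = 0.0123), and without mutant number 1 it was -0.26 (exact p = 0.01). Beyond the VH genes the difference in share was -0.25 (exact p = 0.075, adjusted p = 0.131). With the number as the unit, the middle VH share and the share beyond the VH genes also had an exact p = 0.1, the smallest possible.

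Activation by LPS+IL4 moved the flanks of the distal VH interval and not detectably the interval itself. Its log2 change, LPS+IL4 over resting, was 0.04 ± 0.13 in WT (edgeR adjusted p = 0.886, with 18.7% of windows called) and 0.16 ± 0.13 in the mutant (edgeR adjusted p = 0.450, 15% called). The next window of the same width towards the bait, 0.4 to 1.5 Mb away, rose in WT (log2 0.29 ± 0.06, edgeR adjusted p = 0.00101) and had a log2 change of 0.13 in the mutant (edgeR adjusted p = 0.134). The window beyond the VH genes, 2.6 to 3.7 Mb away, rose in WT (0.79 ± 0.22, edgeR adjusted p = 0.0104) and in the mutant (1.0 ± 0.22, edgeR adjusted p = 0.00252). The median window of the chromosome had a log2 change of -0.27 in WT and -0.28 in the mutant. Whether the distal change differs from those of its flanks was not tested.

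The reads of the interval were unevenly placed. In 22 windows of 50 kb, the mean share over the 12 libraries ran between 0.0546% and 0.461%. Peaks stood near 1.5, 1.9, 2.2 and 2.4 Mb from the bait, and lows near 1.6 and 2.3 Mb. The means of all 4 groups had these highs and lows, as the profile by distance shows. Windows differ in their number of listed ends, between 28 and 168, so levels between windows are not per fragment.

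**Figure D2:**
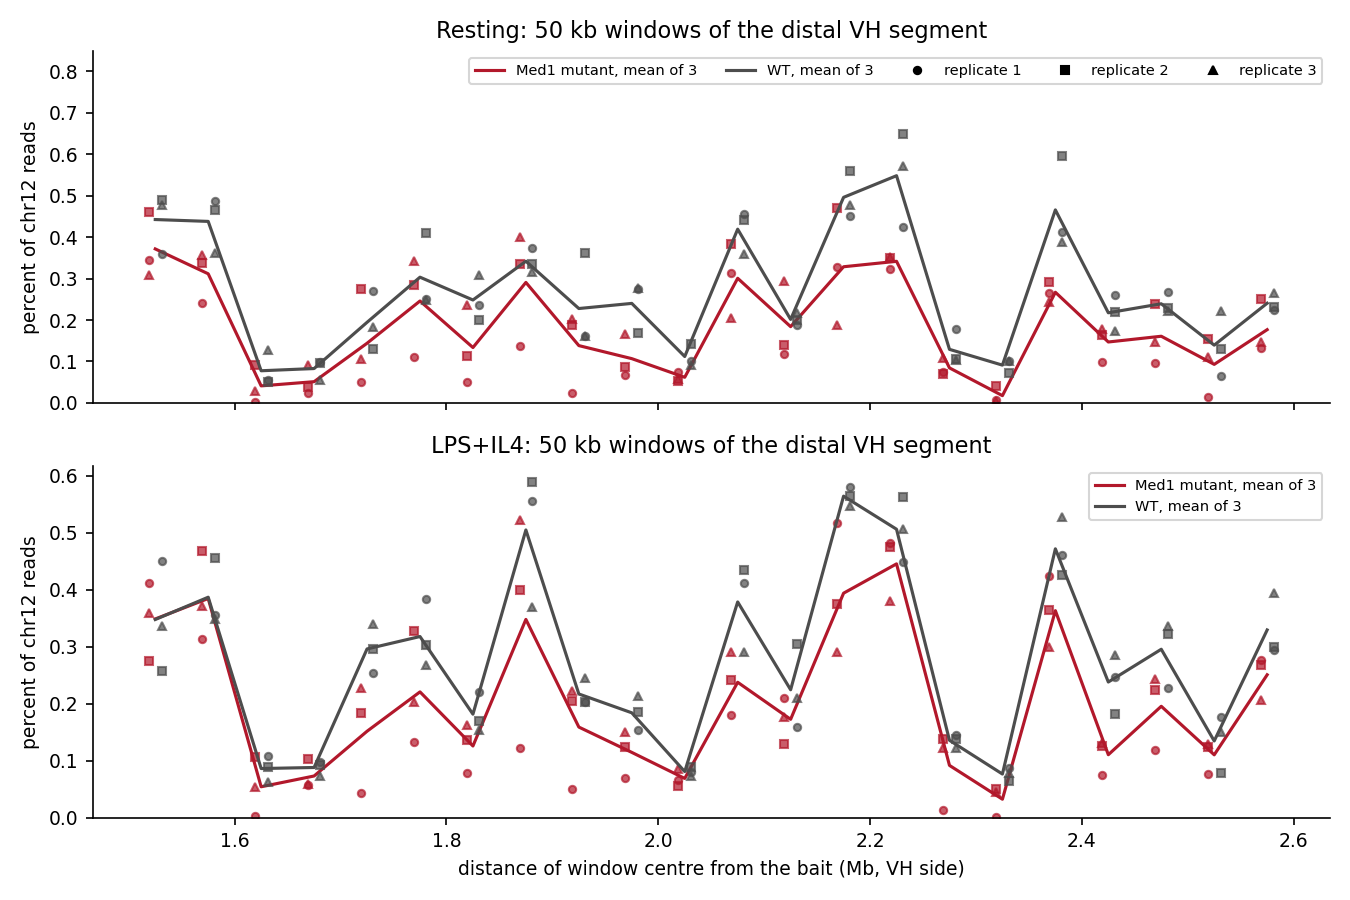
Share of chromosome 12 reads (percent, y) in each 50 kb window by the distance of its centre from the bait (Mb, x), at rest above and with LPS+IL4 below. Lines are means of 3 libraries, Med1 mutant red and WT grey, and each point is 1 library with its shape giving the replicate number. The mutant line runs below the WT line over most of the interval, and the highest window mean of the 12 libraries, 0.461%, lies at 2.2 Mb.

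The window with the highest mean (chr12:115626026-115676025) holds Ighv8-12, an Ighv8 gene annotated as a V segment. Its share was 0.324%, 0.350% and 0.352% in mutant resting libraries, against 0.425%, 0.648% and 0.572% in WT resting libraries. After activation it was 0.482%, 0.474% and 0.381% in mutant libraries, against 0.448%, 0.564% and 0.507% in WT libraries. The genotypes did not overlap at rest and overlapped with LPS+IL4. Its log2 change was -0.68 ± 0.23 at rest (edgeR adjusted p = 0.141) and -0.18 ± 0.23 with LPS+IL4 (edgeR adjusted p = 0.744). The best-read end, 177 bases from Ighv8-12, averaged 920.0 counts per 1000000 chromosome 12 reads over 5 kb from the bait (CPM) and was listed in all 18 libraries.

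The next window (chr12:115576026-115626025) holds Ighv1-66 to Ighv1-69, all J558 genes. It had 0.328%, 0.471% and 0.188% in mutant resting libraries, against 0.451%, 0.560% and 0.477% in WT resting libraries. In activated cells it had 0.517%, 0.375% and 0.291% in mutant libraries, against 0.581%, 0.565% and 0.547% in WT libraries. Mutant number 3 was the lowest on both days. The best-read end, 161 bases from Ighv1-67, had 597, 1414 and 10.7 CPM in mutant resting libraries, against 815, 1499 and 1190 CPM in WT resting libraries. With LPS+IL4 it had 1707, 1065 and 259 CPM in mutant libraries, against 1428, 1005 and 1485 CPM in WT libraries. At this end the other 2 mutant numbers lay within or above the range of WT in LPS+IL4 and mutant number 3 far below it.

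The third window (chr12:115776026-115826025) holds Ighv1-73, Ighv1-74 and Ighv8-14. It had 0.265%, 0.292% and 0.245% in mutant resting libraries, against 0.413%, 0.595% and 0.389% in WT resting libraries. After LPS+IL4 it had 0.425%, 0.365% and 0.300% in mutant libraries, against 0.461%, 0.427% and 0.528% in WT libraries. The mutant libraries lay below the WT libraries in both cultures. It was the 1 distal window called for the mean of both cultures, with a log2 change of -0.59 ± 0.17 (edgeR adjusted p = 0.0423). In that comparison 3.75% of the 80 windows of the locus were called, 3 in all and each lower in the mutant. The call was lost without mutant resting replicate 1, mutant LPS+IL4 replicate 2 or 3, WT resting replicate 2, or any 1 of the WT LPS+IL4 libraries, where 0 distal windows were called, as with TMM factors, DESeq2 or covered ends in place of reads. Without mutant resting replicate 2 or 3, 4 distal windows were called, and the counts over all 80 are not given here. Its best-read end, 1725 bases from Ighv1-74, averaged 483 CPM and lay in the overlap of the genotypes.

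The fourth window (chr12:114976026-115026025), nearer the bait, holds Ighv1-46, Ighv1-47, Ighv8-3 and Ighv8-4. It had 0.241%, 0.337% and 0.358% in mutant resting libraries, against 0.488%, 0.465% and 0.361% in WT resting libraries. In LPS+IL4 cultures it had 0.314%, 0.468% and 0.372% in mutant libraries, against 0.356%, 0.456% and 0.349% in WT libraries, so that the genotypes overlapped. Its log2 changes were -0.49 ± 0.24 (edgeR adjusted p = 0.308) and -0.01 ± 0.24 (edgeR adjusted p = 0.985). Its best-read end, 1204 bases from Ighv1-47, averaged 256 CPM with wide scatter, at 8.86, 80.7 and 0.888 CPM in mutant resting libraries, against 264, 475 and 59.2 CPM in WT resting libraries.

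The 2 lowest windows showed the widest scatter. The window with Ighv1-71, Ighv1-72 and Ighv8-13 (chr12:115726026-115776025) had 66, 504 and 53 reads in mutant resting libraries, against 2577, 1210 and 1592 reads in WT resting libraries. After activation it had 31, 5098 and 612 reads in mutant libraries, against 2458, 1231 and 1510 in WT libraries. As shares the mutant libraries were below the WT libraries in both cultures, with a log2 change for their mean of -1.80 ± 0.71 (edgeR adjusted p = 0.117). The window with Ighv1-48, Ighv1-49 and Ighv8-5 (chr12:115026026-115076025) had 28, 1123 and 318 reads in mutant resting libraries, against 1395, 852 and 2024 in WT resting libraries. As shares the genotypes overlapped there at rest, with 0.00276%, 0.0925% and 0.0282% in mutant libraries, against 0.0553%, 0.0501% and 0.127% in WT libraries. They also overlapped with LPS+IL4, at 0.00303%, 0.107% and 0.0533% in mutant libraries, against 0.109%, 0.0883% and 0.0621% in WT libraries. Mutant number 1 held under 0.01% of its reads in either window on both days (0.00650% and 0.00195% in the first, 0.00276% and 0.00303% in the second).

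The lower mutant estimates were spread over the whole interval. The estimate, mutant over WT, was negative in 22 of 22 windows at rest (median -0.59, against -0.15 over all 80 windows of the locus, of which 52 were negative). In activated cells it was negative in 21 of 22 (median -0.52, against -0.19, 60 negative), and for the mean in 22 of 22 (median -0.57, against -0.17, 59 negative). At rest 0 windows were called (0%, edgeR), with 5 of the 22 and 12 of all 80 at an unadjusted p under 0.05. After LPS+IL4 0 of the 22 were called (1.25% of the 80 windows). An unadjusted p under 0.05 was there reached by 2 of the 22 and 7 of the 80. With the library set as a block, 9 of the 22 windows were called for the mean, all lower, among 16 of 80. In that fit mutant number 1, the only mutant of the first set, carries more weight than in the main fit. With the number as the unit 0 of the 22 were called (limma, 0% of the 80), 7 had an unadjusted p under 0.05 and all 22 estimates were negative. For activation 0 of the 22 were called in WT (11.2% of the 80) or in the mutant (10%), and none for the interaction (0%), with 0 at an unadjusted p under 0.05 in each.

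**Figure D3:**
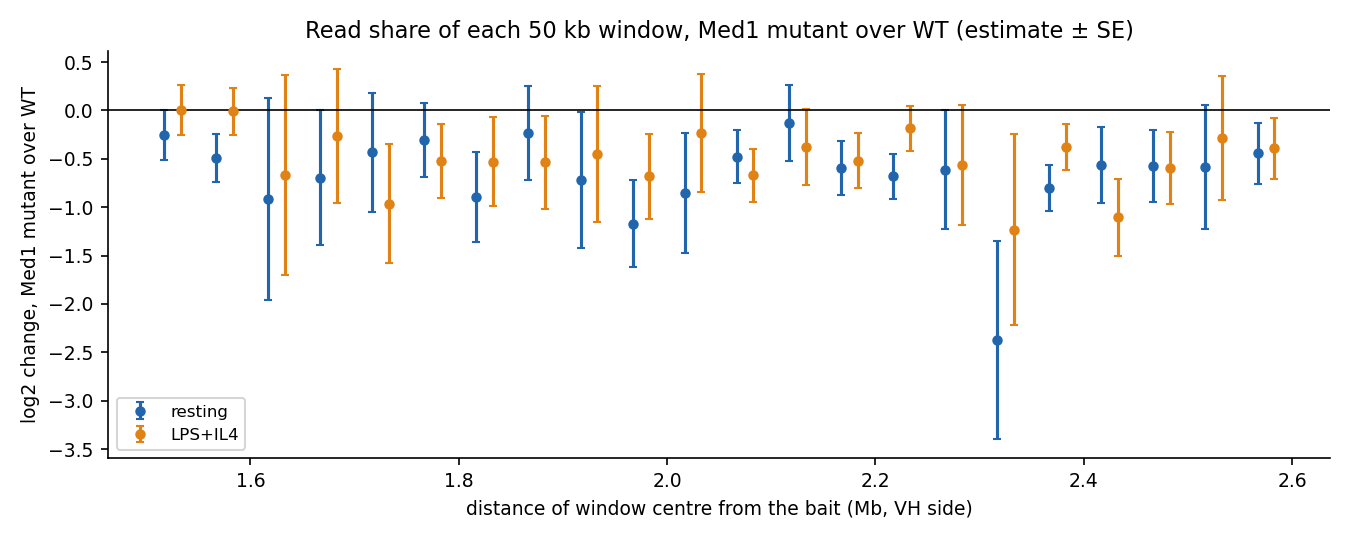
Log2 change, Med1 mutant over WT (y, edgeR estimate ± SE), of each 50 kb window by the distance of its centre from the bait (Mb, x), at rest (blue) and with LPS+IL4 (orange). All 22 resting estimates and 21 of the 22 LPS+IL4 estimates lie below 0, and most error bars of neighbouring windows overlap.

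At the level of genes, ends within 5 kb of an Ighv gene were summed. They were 1163 of the 2033 ends (57.2%), and 31 of them overlapped a gene. Over the 63 genes the mean level ran between 35.9 and 2757 CPM with a median of 383 CPM. The Ighv8 genes had a median of 522 CPM and the Ighv1 genes one of 335 CPM. Ends nearest an Ighv1 gene were 44.2% of the listed ends and took 44.8% to 59.3% of the distal reads in the 12 libraries. Ends nearest an Ighv8 gene were 13.0% of the listed ends and took 14.6% to 24.4% of the reads. Ends with no Ighv gene within 5 kb were 42.8% of the ends and took 20.9% to 32.2%. At rest the Ighv8 part of the distal reads was 21.1% ± 1.72 in mutant and 18.6% ± 4.23 in WT cells, and with LPS+IL4 22.6% ± 1.65 in mutant and 21.6% ± 1.61 in WT cells (SD, n = 3 each), and the genotypes overlapped in both cultures.

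The 5 genes with the highest mean level were Ighv8-8, Ighv8-12, Ighv1-67, Ighv1-47 and Ighv1-64, all annotated as V segments, which encode the variable part of the heavy chain. Ighv8-8 (chr12:115294066-115294362) had 1261, 2752 and 2734 CPM in mutant resting libraries, against 2848, 2133 and 2033 CPM in WT resting libraries. With LPS+IL4 it had 1030, 2949 and 3911 CPM in mutant libraries, against 4173, 4205 and 3050 CPM in WT libraries. Mutant number 1 was low on both days and the other mutant libraries lay among or near the WT values. The best-read end of the whole interval lies in this gene, averaging 1075 CPM. Ighv8-12 (chr12:115647945-115648245) had 2257, 2089 and 2207 CPM in mutant resting libraries, against 2163, 2297 and 2946 CPM in WT resting libraries. After LPS+IL4 it had 3775, 3001 and 2071 CPM in mutant libraries, against 2537, 2997 and 2806 CPM in WT libraries. It was the most even of the 5 over the groups, and its log2 change for the mean of both cultures was -0.05 ± 0.20 (edgeR adjusted p = 0.934).

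Ighv1-67 (chr12:115603940-115604233) had 1980, 2672 and 803 CPM in mutant resting libraries, against 2212, 2665 and 2841 CPM in WT resting libraries. In LPS+IL4 cultures it had 3696, 2051 and 1181 CPM in mutant libraries, against 3138, 3653 and 3320 CPM in WT libraries. Mutant number 3 was again the lowest on both days. Ighv1-47 (chr12:114991108-114991401) had 756, 1292 and 1221 CPM in mutant resting libraries, against 2015, 2066 and 1374 CPM in WT resting libraries, with no overlap. After activation it had 765, 2326 and 1080 CPM in mutant libraries, against 1781, 2535 and 1683 CPM in WT libraries, with overlap. Ighv1-64 (chr12:115507587-115507977) had 1767, 1564 and 732 CPM in mutant resting libraries, against 1402, 2277 and 1708 CPM in WT resting libraries. In activated cells it had 668, 1463 and 1081 CPM in mutant libraries, against 1693, 2149 and 1575 CPM in WT libraries, where the genotypes did not overlap. The log2 changes for the mean of both cultures were -0.52 ± 0.29 for Ighv1-67, -0.63 ± 0.30 for Ighv1-47 and -0.58 ± 0.29 for Ighv1-64 (edgeR adjusted p = 0.592, 0.535 and 0.556).

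Of the 63 genes 0 were called in any of the 5 comparisons (edgeR, 0% of 183 Ighv genes in each of them). At an unadjusted p under 0.05 there were 5 of 63 at rest, 2 with LPS+IL4 and 8 for their mean. Over all 183 Ighv genes these counts were 11, 6 and 16. DESeq2, which scaled libraries by its own size factors and not by chromosome 12 reads, called 2 genes at rest and 1 for the mean, all lower. It called 1 gene for activation in the mutant, higher. Its calls over all 183 Ighv genes are not given here, so these counts are not read as particular to the distal genes. The estimates were negative for 53 of the 63 genes at rest and for 48 with LPS+IL4 (medians -0.51 and -0.54), against 114 and 123 of all 183 Ighv genes (medians -0.23 and -0.30).

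Around the 3 promoters with the printed sequence, 16, 20 and 13 ends lay within 5 kb of the start (Gm30948, Gm30996 and Gm40900), and their reads were scattered. At Gm30948, which starts 4219 bases from Ighv8-7, they had 42.3, 85.6 and 918 CPM in mutant resting libraries, against 816, 577 and 827 CPM in WT resting libraries. With LPS+IL4 it had 44.1, 213 and 515 CPM in mutant libraries, against 319, 648 and 308 CPM in WT libraries, and the genotypes overlapped in both cultures. At Gm30996 they had 207, 99.6 and 502 CPM in mutant resting libraries, against 1606, 534 and 985 CPM in WT resting libraries, with no overlap. With LPS+IL4 the genotypes overlapped at Gm30996, with 217, 321 and 504 CPM in mutant libraries, against 282, 473 and 563 CPM in WT libraries. At Gm40900 they had 0, 11.5 and 8.88 CPM in mutant resting libraries, against 99.2, 309 and 56.0 CPM in WT resting libraries. With LPS+IL4 Gm40900 had 0.630, 19.1 and 232 CPM in mutant libraries, against 0, 70.5 and 0 CPM in WT libraries, so its resting order did not recur.

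Single ends were sparse. Of the 2033 ends 48 (2.36%) were listed in all 18 libraries and 370 (18.2%) in 1 library, with a median of 4 libraries per end. The 70 ends covered in all 12 libraries with reads held on average 30.9% of the distal reads. The 10 best-read ends of each library took 23.6%, 21.7% and 17.4% of its distal reads in mutant resting libraries, against 15.5%, 18.8% and 14.0% in WT resting libraries. With LPS+IL4 they took 27.0%, 15.2% and 16.4% in mutant libraries, against 17.1%, 17.5% and 17.8% in WT libraries, so the genotypes overlapped (log2 difference 0.24, exact p = 0.16, adjusted p = 0.224).

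Mutant number 1 lacked particular ends. Of 100 distal ends covered in all other 10 libraries with reads, 9 had 0 reads in it on both days, against 0 or 1 for each of the other 5 numbers. It lacked 9 of 167 such ends in the middle VH interval, 4 of 124 in the proximal interval and 1 of 539 on the constant region side up to 300 kb. The 9 distal ends lay in 7 of the 22 windows. Each of the 6 LPS libraries covered 8 or 9 of them, mutant LPS replicate 1 among them with 8. Several of the 9 had as few as 1 read in some other library. The end 153 bases from Ighv1-78 had only 2.47 to 15.4 CPM in the other 10 libraries. Mutant resting replicate 1 also had the fewest chromosome 12 reads, 1016043. The clearest of the 9 was an end at chr12:115216036-115216059, 7509 bases from Ighv1-55, with 25.9 to 585 CPM in the other 10 libraries. In mutant number 1 its 0 reads allow up to 2.95 CPM at rest and 1.89 CPM with LPS+IL4, by a floor of 3 reads per library. That floor covers counting error only, as the reads carry no molecular identifiers. The heat map of windows by library shows the same library pair low over several windows.

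**Figure D4:**
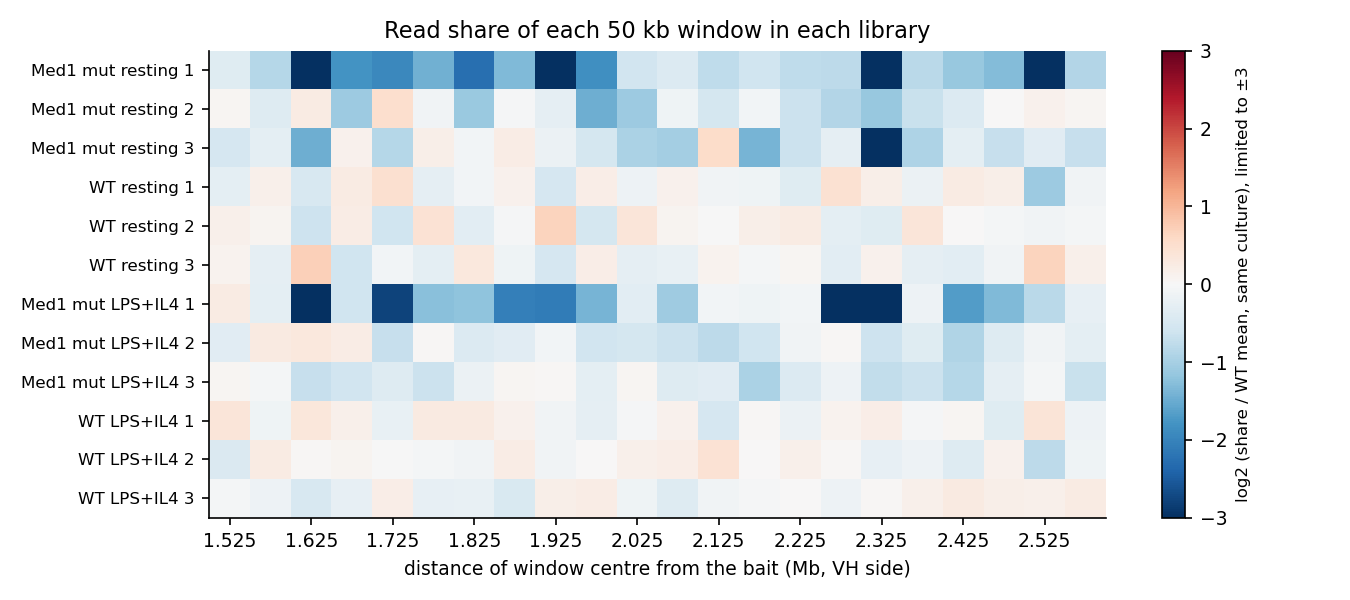
Log2 ratio of each library's share to the WT mean of the same culture (colour, limited to ±3) for the 22 windows of 50 kb (x, distance of the centre from the bait in Mb) in 12 libraries (y). Blue is below and red above the WT mean. Mutant replicate 1 has the most dark windows on both days, and mutant replicates 2 and 3 are mostly pale blue.

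Without mutant number 1 the estimates remained negative in 19 of 22 windows at rest, 21 with LPS+IL4 and 22 for their mean, with medians of -0.35, -0.27 and -0.31. For that mean 2 windows were called, both lower. The count over all windows of the locus is not given here, so this is not read as particular to the distal interval. The segment's log2 change for the mean was then -0.35 (edgeR adjusted p = 6.5e-06). This fit took the libraries as independent, and mutant number 1 was left out after its values were seen. With the number as the unit the difference in share, -0.35, had an exact p = 0.1, the smallest of 10 arrangements. The division of reads within the interval did depend on mutant number 1. The log2 ratio of the near to the far part (split at 2.05 Mb) had a genotype difference of 0.04 in all libraries (exact p = 0.845) and of 0.28 without mutant number 1 (exact p = 0.01, the smallest possible, or 0.1 with the number as the unit). The near part took 38.9%, 47.0% and 53.7% of the distal reads in mutant resting libraries, against 46.8%, 45.4% and 45.7% in WT resting libraries. With LPS+IL4 it took 36.2%, 48.7% and 51.0% in mutant libraries, against 46.9%, 44.7% and 41.9% in WT libraries. Mutant number 1 lay below all WT libraries and numbers 2 and 3 above all WT libraries of the same culture.

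With LPS alone the genotypes did not differ detectably in covered ends. The 3 mutant libraries covered 569, 673 and 479 distal ends, against 734, 614 and 770 in WT libraries. These were 7.67%, 7.49% and 7.19% of the covered chromosome 12 ends in mutant libraries, against 7.54%, 8.10% and 7.40% in WT libraries. The groups overlapped. The log2 change of the share was -0.04 ± 0.14 (limma adjusted p = 1.0 over 104 windows of 1.1 Mb, 0% called, 2 at an unadjusted p under 0.05). Of the 22 windows of 50 kb 0 were called by limma (0% of 78), and 10 estimates were negative (34 of the 78). An unadjusted p under 0.05 was reached by 1 of the 22 and 3 of the 78. A covered end counts once however often it was read, and the depth of these libraries is unknown.

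The same measure in the first deposit gave 4.58%, 6.92% and 6.66% in mutant resting libraries, against 7.32%, 7.79% and 8.28% in WT resting libraries. After LPS+IL4 it gave 5.07%, 6.37% and 6.90% in mutant libraries, against 7.46%, 7.37% and 7.66% in WT libraries. In both cultures the genotypes did not overlap. Limma on the covered ends of all 18 libraries gave log2 changes of -0.39 ± 0.15 at rest (adjusted p = 0.241) and -0.31 ± 0.15 with LPS+IL4 (adjusted p = 0.571). For the mean of these cultures limma gave -0.35 ± 0.11 (adjusted p = 0.100). It thus did not call the distal interval in any of the 3, where it called 5, 0 and 1 of 106 windows. Thinned to the 1016043 chromosome 12 reads of the shallowest library, the expected covered distal ends were 344, 490.2 and 533 in mutant resting libraries, against 551, 571 and 711 in WT resting libraries. With LPS+IL4 they were 398, 806 and 748 in mutant libraries, against 795, 753 and 777 in WT libraries, where mutant replicate 2 was the highest of the 6. As a share of the covered chromosome 12 ends at that depth, the genotypes did not overlap in either culture. At rest this share was 4.58%, 6.93% and 6.66% in mutant libraries, against 7.47%, 7.81% and 8.39% in WT libraries. With LPS+IL4 it was 5.01%, 6.85% and 6.92% in mutant libraries, against 7.64%, 7.56% and 7.82% in WT libraries. Over all 3 cultures the log2 difference in the share of covered ends was -0.25 (exact p = 0.00125, 8000 arrangements), negative in 3 of 3 cultures. With resting and LPS+IL4 libraries of a number as 1 unit, the exact p was 0.025 (400 arrangements). Without mutant number 1 on both days the difference was -0.14 (exact p = 0.003, or 0.025 over 200 arrangements by number). For LPS alone it was -0.04 (exact p = 0.5, with 0.1 the smallest possible). The genotype effect with LPS minus the mean effect of the other cultures was 0.30 ± 0.19 (limma over 106 windows, adjusted p = 0.877). A difference between LPS alone and the other cultures was therefore not shown. Culture and deposit cannot be told apart here, as all LPS libraries came from the later deposit.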

How the data were processed

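The 12 resting and LPS+IL4 files, as deposited, are bedGraph tracks per the file headers and hold whole-number read counts per interval of 24 bases beside a DpnII site. The 6 deposited LPS files list covered ends without a value. The submitters' processing notes name Bowtie, Bowtie2 and mm10; mapping parameters and filters are not given in the sources used here. Counts were summed per window and per Ighv gene, leaving out 5 kb around the bait and features with a mean under 10. edgeR 4.0.16 (quasi-likelihood, robust, 12 libraries together, library size the chromosome 12 reads over 5 kb from the bait) was run in R 4.3.3. DESeq2 1.42.0, with its own size factors, was an alternative. Covered ends of the LPS files were fitted with limma 3.58.1 on log2 shares with a pseudocount of 1. P-values are two-sided and Benjamini-Hochberg adjusted over all features of a table at a threshold of 0.05. Single values were tested by exact permutation of genotype within cultures. Covered ends at a common depth were hypergeometric expectations. The fits were tested on simulated data. Sequences came from the RefSeq promoter table (GRCm38.p6) and the series' design text. The named windows were the 4 with the highest and the 2 with the lowest mean share and any called, with the best-read end of each of the 4, and the genes were the 5 with the highest mean level and any called. The ends at the promoters and those lacking in mutant number 1 were chosen after their values were seen. Members and lists were chosen with earlier results of these data known. Alternatives were other library sizes, TMM factors, filters, window widths, reaches and bait gaps, capped ends, covered ends, DESeq2, only the compared groups, leaving out single libraries and a replicate block. Leaving out mutant number 1, the library set as a block, both days of a number averaged as 1 unit (limma, trend and robust) and the fit of all 18 libraries were added after the data were seen. Python 3.11.15 with pandas 2.3.3, numpy 2.4.6, scipy 1.17.1, biopython 1.88 and matplotlib 3.10.9 did the rest.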

Additional observations from a re-analysis of the deposited data

How the results depend on the processing

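The distal VH log2 change, Med1 mutant over WT, was negative under each alternative run at rest (-0.74 to -0.36), with LPS+IL4 (-0.53 to -0.25) and for their mean (-0.59 to -0.33). The mean stayed called under each alternative other than leaving out single libraries and taking the number as the unit (-0.52, limma adjusted p = 0.195). At rest the call was lost with TMM factors (-0.74), library size from the VH side (-0.42) and only the compared groups (-0.56). With LPS+IL4 it passed with library size from the locus (-0.45), only the compared groups (-0.44) and without mutant number 1 (-0.33). Activation in WT turned to -0.14 with library size from the VH side and to -0.0568 with covered ends. The share of covered ends differed by -0.0431 with LPS only. Distal windows called for the mean numbered 0 with TMM factors, library size from the locus or the VH side, DESeq2, covered ends and the number as the unit, 2 without mutant number 1, 5 of 11 in 100 kb windows and 9 with the library set as a block, against 1. At rest 2 windows of 100 kb were called, and with LPS+IL4 1 window with the library set as a block. DESeq2 called 2 genes at rest, 1 for the mean and 1 for activation in the mutant, against 0. Counts called under alternatives in this section are given without those over all windows of the locus or all Ighv genes. They are therefore not read as particular to the distal interval.

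Leaving out single libraries gave log2 changes of -0.72 to -0.37 at rest, -0.52 to -0.33 with LPS+IL4, -0.58 to -0.41 for the mean, -0.03 to 0.31 for activation in the mutant and -0.07 to 0.28 for the interaction. The last 2 changed sign without mutant resting replicate 1, at -0.0293 and -0.0661, and the LPS+IL4 change then passed (edgeR adjusted p = 9.9e-04). Distal windows called for the mean ranged between 0 and 4, with 4 without mutant resting replicate 2 or 3, and genes between 0 and 2, with 2 without mutant resting replicate 2.

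Between genotypes the deviations of same-numbered libraries correlated by -0.17 to 0.09 over 80 windows, so no pairing by number was seen there. Over the 22 distal windows they correlated by 0.37, -0.31 and 0.06 at rest (numbers 1, 2 and 3). With LPS+IL4 they correlated there by -0.29, -0.08 and -0.13. Between days within a genotype they correlated by 0.34, 0.28 and 0.03 in the mutant and 0.56, 0.42 and 0.01 in WT (numbers 1, 2 and 3, over 80 windows), and over the 22 distal windows by 0.58, 0.68 and -0.04 in the mutant and -0.37, -0.04 and 0.03 in WT. Numbers 1 and 2 thus deviated together on both days over the locus and number 3 did not. With a replicate block shared by the genotypes the LPS+IL4 change was -0.46 (edgeR adjusted p = 0.0228), 3 windows were called for the mean, and the share difference, taken on averages of the days for each number, was -0.52 (exact p = 0.1, the smallest possible). Depth limits the windows with few reads most, and the LPS files have no depth at all.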
